A study of Homo sapiens with 3 samples.

Results

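LIF, its receptor chain LIFR, the interleukin receptor chains IL21R and IL22RA1, and the transcription factor STAT5A were followed in PLC, labelled as a line of human liver cancer cells. These 5 symbols were listed by name from 12034 gene symbols with a row in the deposited table, and they were picked with the differences between these libraries in view. Their levels and ratios are therefore descriptions, with no test. The libraries were shHKDC1 (HKDC1 knocked down), shRBBP5 (RBBP5 knocked down) and NTC, the control by its label, with 1 library in each group and no replicates. The study asked whether HKDC1, a hexokinase family protein, and RBBP5, a subunit shared by the histone H3 lysine 4 methyltransferase complexes, regulate gene expression. All 3 libraries were from the same line in the same medium, and the labels give neither the knockdown constructs nor whether clones were used.

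Cytokine receptors of this class have no kinase of their own. Ligand binding brings receptor chains together, Janus kinases bound to them phosphorylate the chains, and STAT proteins dock there, are phosphorylated and move to the nucleus, where they act as transcription factors. LIF, an interleukin-6 family cytokine, signals through LIFR paired with gp130 (IL6ST), chiefly to STAT3. IL21R pairs with the common gamma chain (IL2RG) and is best known from lymphocytes, whereas IL22RA1 pairs with IL10RB and lets epithelial cells and hepatocytes respond to interleukin-22. STAT5A, close in sequence to STAT5B, is activated in liver by growth hormone, among other ligands.

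Each member had between 1 and 5 RefSeq transcripts, and the table gives a row to a transcript, so the rows that carry each value are shown first. The 5 genes had 14 rows, all of protein-coding transcripts, of which 12 were matched by accession to GENCODE 29 transcripts on GRCh38 and 2, both of LIFR, were not. Versions of the matched accessions can differ from those in the table. For LIF, every unit lay on NM_002309, which encodes 202 residues, and NM_001257135, which encodes 88, was listed at 0 in every library. Among their differences is exon 2, a coding exon of 179 bases at chr22:30244755-30244933 on the minus strand of GRCh38, present in the first and absent from the second. For STAT5A, exon 4 of NM_001288718, 90 coding bases at chr17:42291972-42292061 on the plus strand, is absent from NM_001288719, so that these rows encode 794 and 764 residues. NM_003152, the other STAT5A row with values, also encodes 794 residues. Both exons are given in lower case, 5′ to 3′. That of LIF is shown because the row that holds every unit includes it and the row at 0 does not, and that of STAT5A because it separates NM_001288718 from NM_001288719.
LIF exon 2: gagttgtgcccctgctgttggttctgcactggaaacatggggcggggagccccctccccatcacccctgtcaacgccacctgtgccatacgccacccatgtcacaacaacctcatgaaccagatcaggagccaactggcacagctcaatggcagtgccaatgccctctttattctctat
STAT5A exon 4: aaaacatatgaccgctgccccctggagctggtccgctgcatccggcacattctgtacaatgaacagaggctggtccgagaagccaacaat

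The matched LIFR and IL21R rows differ outside the coding sequence instead. The matched LIFR transcripts NM_001127671 and NM_002310 encode the same 1097 residues from different first exons, and the 3 IL21R transcripts each encode 538 residues. RefSeq windows of 250 bases before a start (GRCh38.p14) were matched for 4 of the 5 symbols, LIFR, IL21R, IL22RA1 and STAT5A, with 8 windows in all. A window at the matched start of a row that led in some library is printed for each of the 4, in lower case, 5′ to 3′. For LIFR it lies just before the start of NM_001127671, the leading row in NTC (chr5:38556647-38556896, minus strand). The IL21R window (chr16:27427021-27427270, plus strand) ends 27 bases from the GENCODE start of NM_021798, the leading row in both knockdown libraries. That of IL22RA1 (chr1:24143141-24143390, minus strand) ends 19 bases from the start of NM_021258. The STAT5A window (chr17:42287297-42287546, plus strand) lies just before the start of NM_003152, the leading row in shHKDC1.
LIFR NM_001127671: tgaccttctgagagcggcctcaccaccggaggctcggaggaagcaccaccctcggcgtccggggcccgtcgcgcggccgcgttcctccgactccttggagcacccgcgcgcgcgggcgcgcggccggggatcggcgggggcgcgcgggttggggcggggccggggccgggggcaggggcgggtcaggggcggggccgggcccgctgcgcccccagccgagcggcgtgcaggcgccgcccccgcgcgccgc
IL21R NM_021798: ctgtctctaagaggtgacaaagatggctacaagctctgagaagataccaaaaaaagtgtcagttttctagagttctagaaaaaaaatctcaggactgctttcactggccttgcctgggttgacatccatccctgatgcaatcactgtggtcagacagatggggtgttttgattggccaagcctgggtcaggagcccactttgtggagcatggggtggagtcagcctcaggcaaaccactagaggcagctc
IL22RA1 NM_021258: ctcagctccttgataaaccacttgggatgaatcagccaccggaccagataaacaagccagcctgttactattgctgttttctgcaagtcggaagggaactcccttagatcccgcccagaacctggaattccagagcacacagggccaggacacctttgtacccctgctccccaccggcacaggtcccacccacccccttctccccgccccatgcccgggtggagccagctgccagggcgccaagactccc
STAT5A NM_003152: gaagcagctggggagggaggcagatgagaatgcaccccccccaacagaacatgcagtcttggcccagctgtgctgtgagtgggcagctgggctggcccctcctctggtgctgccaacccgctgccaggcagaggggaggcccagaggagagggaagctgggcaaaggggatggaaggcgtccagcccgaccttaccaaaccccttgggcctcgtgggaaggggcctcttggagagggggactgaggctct

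The window of LIFR NM_001127671 holds 44 CG dinucleotides and 83.6% G+C, and 99.2% of all 35116 windows hold fewer CG dinucleotides. Starts rich in CG are, as background, those where trimethylated histone H3 lysine 4 is usually found. The printed windows hold 0 CG for IL21R, 7 for IL22RA1 and 4 for STAT5A, against a median of 11 over all windows. Among the windows not printed, those of STAT5A hold 1 and 29 CG and those of LIFR 0 and 4. TTCNNNGAA, the core sequence bound by STAT proteins, was searched on both strands of all 8 windows, and 6.57% of the 35116 windows hold it. It was found once in each of the other LIFR windows, one 1 base from the start of NM_002310 and one 821 bases from that of NM_001127671, which is the nearest matched row. It was not found in the 4 printed windows or in the other STAT5A windows. These matches describe letters only.

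In the shHKDC1 library, LIF and IL21R were higher than in NTC, and LIFR, IL22RA1 and STAT5A were lower. In the shRBBP5 library, LIF was lower than in NTC, IL21R was higher by less than in shHKDC1, and the other members differed from NTC by less than 2-fold. Levels are CPM (units scaled to library size, with factors set by TMM, a trimmed mean of log ratios between libraries), and ratios are log2 with a pseudocount of 0.5 units. A ratio was called when it was at least 2-fold and its exact 95% Clopper-Pearson interval excluded 0. Intervals cover counting error only, and assume that 1 sequenced fragment is worth 4 units. By this rule 2 members were higher and 3 lower in shHKDC1, where 8.37% of 1015 fully named genes with a mean of at least 1 CPM were called higher and 23.1% lower. In shRBBP5, 1 member was higher and 1 lower, beside 2.27% and 8.67% of those genes. Since the members were picked on these contrasts, nothing is read from their count. All 5 had a mean of at least 1 CPM, but LIF and IL21R reached 1 CPM in the shHKDC1 library alone and so passed that filter through it.

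**Figure D1:**
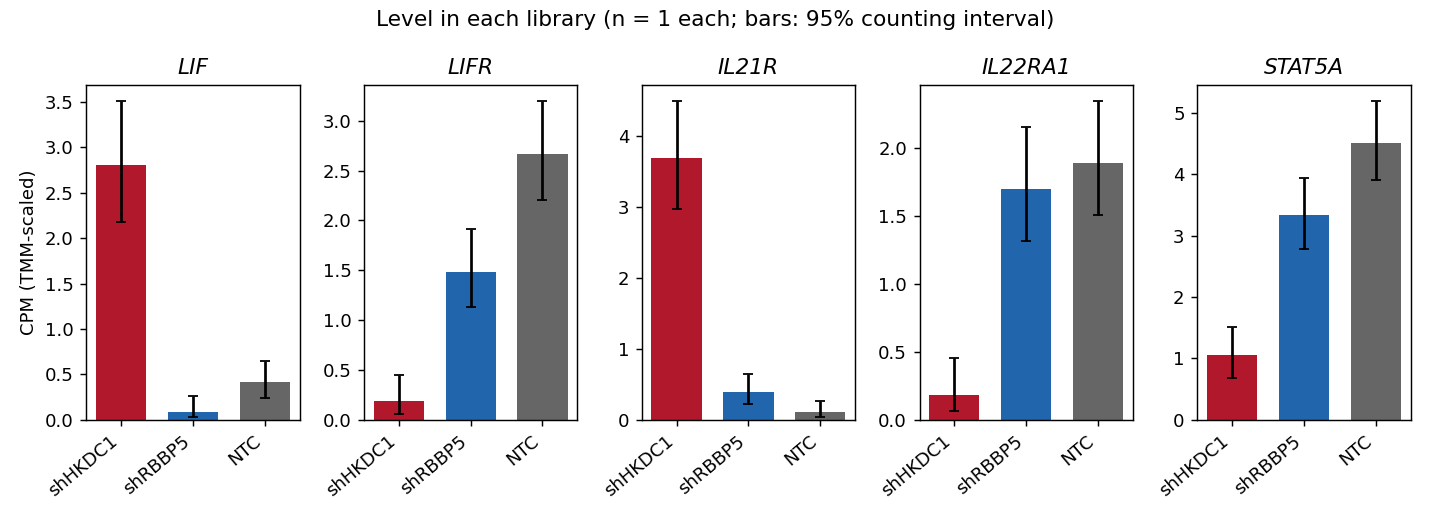
Level of each member (vertical axis, TMM-scaled CPM, starting at 0, with its own scale per gene) in the shHKDC1, shRBBP5 and NTC libraries, 1 library each; error lines are exact 95% Poisson intervals for counting error. LIF and IL21R stand highest in shHKDC1, while LIFR, IL22RA1 and STAT5A stand lowest there.

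LIF, the secreted ligand, had 289 units in shHKDC1, 14 in shRBBP5 and 72 in NTC. These are levels of 2.8 CPM (95% Poisson interval 2.18 to 3.51) in shHKDC1, 0.0878 CPM (0.0273 to 0.257) in shRBBP5 and 0.411 CPM (0.244 to 0.649) in NTC. The shHKDC1 level stood clear of both others, whereas the intervals of shRBBP5 and NTC overlapped slightly. LIF was 6.77-fold higher in shHKDC1 than in NTC (log2 ratio 2.76, 95% interval 2.0 to 3.60). It was 4.55-fold lower in shRBBP5 than in NTC (log2 ratio −2.19, interval −4.06 to −0.43), on about 4 fragments in shRBBP5. Set directly against each other, shHKDC1 exceeded shRBBP5 by 30.8-fold (log2 ratio 4.95, interval 3.38 to 6.71). LIF thus had its call in opposite directions in the knockdowns, the lower one resting on few fragments.

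LIFR, the chain that binds LIF, had 19 units in shHKDC1, 236 in shRBBP5 and 468 in NTC. Its levels were 0.184 CPM (0.0629 to 0.452) in shHKDC1, 1.48 CPM (1.13 to 1.91) in shRBBP5 and 2.67 CPM (2.21 to 3.2) in NTC. The counting intervals of the 3 libraries did not overlap. LIFR was 14.2-fold lower in shHKDC1 than in NTC (log2 ratio −3.82, interval −5.44 to −2.52), on about 5 fragments in shHKDC1. In shRBBP5 the log2 ratio over NTC was −0.85 (interval −1.33 to −0.39), short of 2-fold and not called. Against shRBBP5, shHKDC1 was 7.85-fold lower (log2 ratio −2.97, interval −4.61 to −1.63). Ligand and receptor therefore ran in opposite directions in shHKDC1. LIF was highest and LIFR lowest in that library.

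The LIFR value also sat on different rows. In NTC all 468 units lay on NM_001127671, the transcript from the CG-rich start printed above, and that row was listed at 0 in both knockdown libraries. In shHKDC1 all 19 units and in shRBBP5 all 236 lay on NM_001364297, whose start was not matched here. NM_002310 and NM_001364298 were listed at 0 throughout. Leading rows often differed between libraries in this table, by a count in which a library at 0 units also counts as different. Of 669 fully named genes with at least 2 rows and a mean of at least 1 CPM, 337 (50.4%) differed in some library by that count. How far transcript use and the assignment of reads to rows each contributed was not tested.

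IL21R, the receptor chain for interleukin-21, had 381 units in shHKDC1, 63 in shRBBP5 and 19 in NTC. The corresponding levels were 3.69 CPM (2.98 to 4.5) in shHKDC1, 0.395 CPM (0.229 to 0.651) in shRBBP5 and 0.108 CPM (0.0371 to 0.266) in NTC. The shHKDC1 library was far above the others, and the intervals of shRBBP5 and NTC overlapped slightly. IL21R was 33.2-fold higher in shHKDC1 than in NTC (log2 ratio 5.05, interval 3.74 to 6.67), the widest ratio over NTC among the members. In shRBBP5 it was 3.58-fold higher than in NTC (log2 ratio 1.84, interval 0.30 to 3.62). The direct comparison put shHKDC1 9.28-fold above shRBBP5 (log2 ratio 3.21, interval 2.42 to 4.06). The NTC value in both ratios rests on about 5 fragments.

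By row, all 381 IL21R units in shHKDC1 and 48 of 63 in shRBBP5 lay on NM_021798. The other 15 units in shRBBP5 were on NM_181078, and the 19 units of NTC were on NM_181079. The partner chain of IL21R is the common gamma chain. Its gene, IL2RG, with 1 of its 2 RefSeq transcripts on a row, had 11 units in shHKDC1, 15 in shRBBP5 and 49 in NTC, a level of at most 0.28 CPM. Neither of its ratios over NTC was called (log2 −1.34, interval −3.70 to 0.65, in shHKDC1, and −1.54, interval −3.54 to 0.27, in shRBBP5).

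Because IL21R is best known from lymphocytes, markers of those cells are given beside it. All 11 T and B lymphocyte markers listed had rows, with a summed level of 0.871 CPM in shHKDC1, 1.35 CPM in shRBBP5 and 0.896 CPM in NTC. PTPRC, CD3D, CD3E, CD3G, MS4A1 and CD79B were at 0 in all 3 libraries, and no marker on the list exceeded 0.561 CPM.

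IL22RA1, the receptor chain for interleukin-22, had 19 units in shHKDC1, 272 in shRBBP5 and 332 in NTC. In CPM these are 0.184 (0.0629 to 0.452) in shHKDC1, 1.7 (1.32 to 2.16) in shRBBP5 and 1.89 (1.51 to 2.35) in NTC. The shRBBP5 and NTC libraries overlapped, and shHKDC1 lay below both. IL22RA1 was 10.1-fold lower in shHKDC1 than in NTC (log2 ratio −3.33, interval −4.95 to −2.01), on about 5 fragments in shHKDC1. Over NTC the shRBBP5 ratio was −0.15 (interval −0.64 to 0.33) and not called. Against shRBBP5, shHKDC1 was 9.05-fold lower (log2 ratio −3.18, interval −4.81 to −1.85). The gene has a single RefSeq transcript, so its value lies on 1 row in every library.

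STAT5A, the transcription factor downstream, had 109 units in shHKDC1, 533 in shRBBP5 and 790 in NTC. Only 4 of its 5 RefSeq transcripts have rows of their own, so each value covers that part of the gene, and reads could also be shared with its near-identical paralog STAT5B. The levels were 1.05 CPM (0.689 to 1.52) in shHKDC1, 3.34 CPM (2.79 to 3.95) in shRBBP5 and 4.51 CPM (3.91 to 5.2) in NTC. The shHKDC1 library was lowest, and the intervals of shRBBP5 and NTC overlapped at their edges. STAT5A was 4.26-fold lower in shHKDC1 than in NTC (log2 ratio −2.09, interval −2.75 to −1.53), where 28.4% of 74 partly named genes were called lower and 5.41% higher. In shRBBP5 the ratio was −0.43 (interval −0.77 to −0.11) and not called, and 8.11% of the partly named genes were called lower there and 0 higher. The direct ratio of shHKDC1 over shRBBP5 was −1.66 (interval −2.33 to −1.07), which is called lower like 27% of the partly named genes, against 5.41% higher.

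STAT5A had a different leading row in each library. By the count above, in which 0 units counts as different, so did 56 (8.37%) of the 669 fully named genes. In shHKDC1 all 109 units lay on NM_003152, which had 76 units in shRBBP5 and 48 in NTC. NM_001288719, the form without exon 4, held 79.4% of the shRBBP5 units (423) and 39.0% of the NTC units (308), and was at 0 in shHKDC1. NM_001288718 held 54.9% of the NTC units (434) and 6.4% of the shRBBP5 units (34), and was at 0 in shHKDC1. NM_001288720 was listed at 0 in all 3. On the NM_003152 row alone shHKDC1 therefore stood highest, at 1.05 CPM against 0.476 CPM in shRBBP5 and 0.274 CPM in NTC, the reverse of the summed gene.

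**Figure D2:**
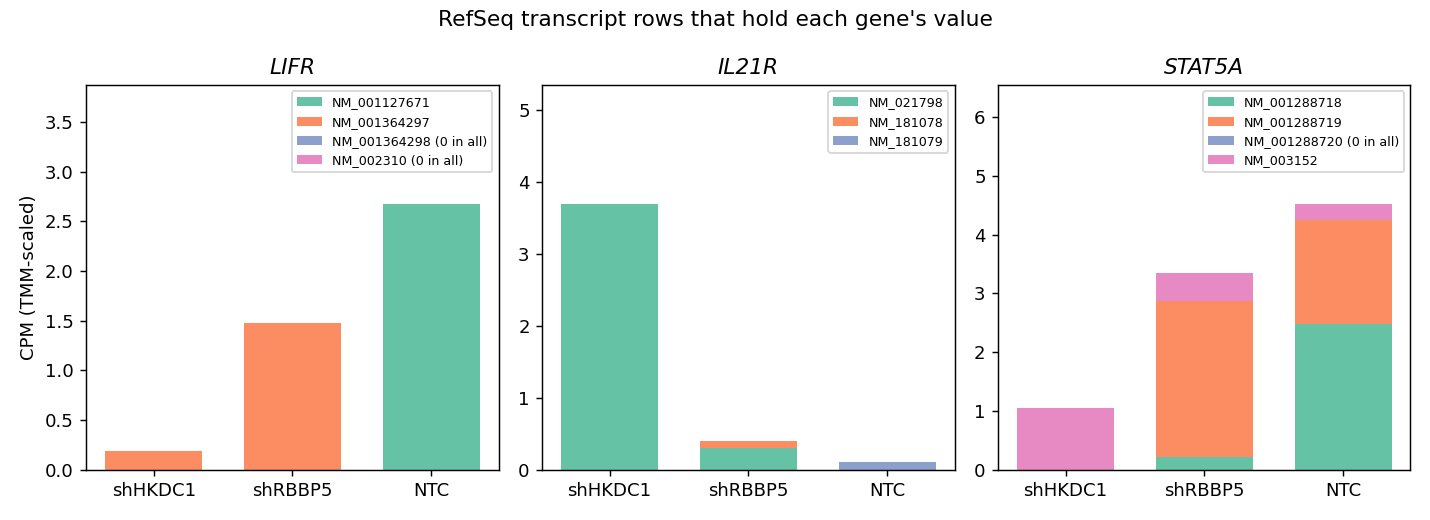
Level in CPM (vertical axis, TMM-scaled) of LIFR, IL21R and STAT5A in the shHKDC1, shRBBP5 and NTC libraries, 1 each, divided by the RefSeq transcript row that holds it. LIFR sits on NM_001364297 in both knockdown libraries and on NM_001127671 in NTC, and STAT5A has a different leading row in each library.

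Per kilobase of the matched GENCODE transcript, the leading IL21R row was at 1.25 CPM per kilobase in shHKDC1, above LIF at 0.705, STAT5A NM_003152 at 0.245 and IL22RA1 at 0.0657. In NTC the order was different. STAT5A NM_001288718 was at 0.746 CPM per kilobase, IL22RA1 at 0.677, LIFR NM_001127671 at 0.628, STAT5A NM_001288719 at 0.57, LIF at 0.104, STAT5A NM_003152 at 0.0637 and IL21R NM_181079 at 0.036. The matched row of IL21R with units was thus the highest in shHKDC1 and the lowest in NTC, among rows above 0. The LIFR row of the knockdown libraries has no matched length and no such value.

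**Figure D3:**
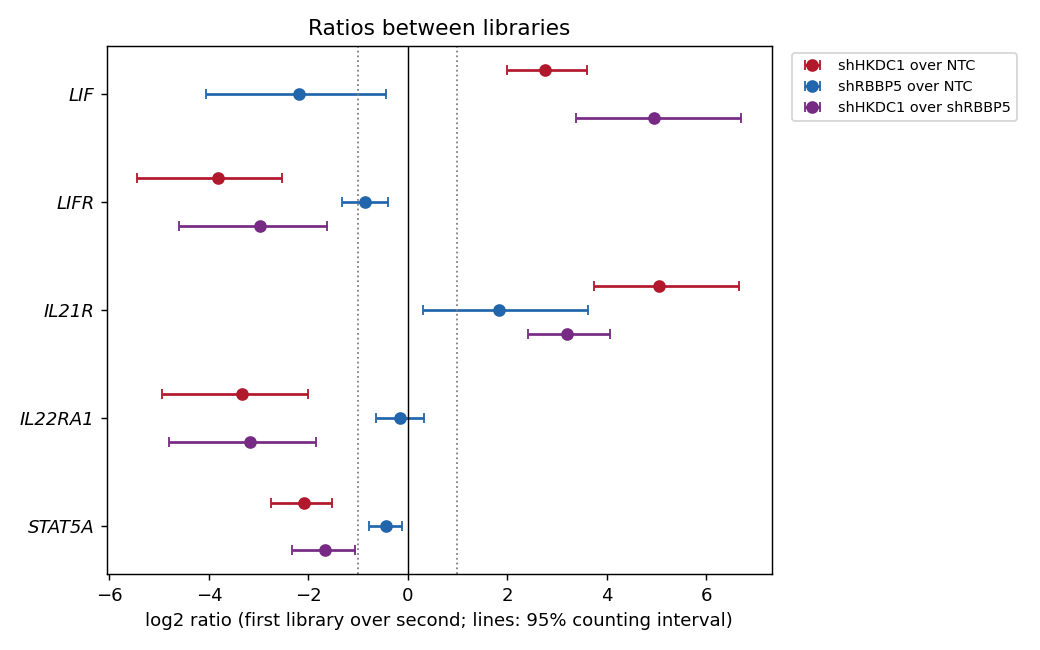
Log2 ratios (horizontal axis) of each member for shHKDC1 over NTC, shRBBP5 over NTC and shHKDC1 over shRBBP5, with 95% counting intervals and dotted lines at 2-fold. The shHKDC1 ratios over NTC run between −3.82 for LIFR and 5.05 for IL21R, while in shRBBP5 LIFR, IL22RA1 and STAT5A lie inside the dotted lines.

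The wider cytokine pathway was described with 10 lists of 144 genes in all, of which 63 had a row. The lists include IL6ST, IL10RB, JAK1, JAK2, TYK2, STAT3, STAT5B and SOCS3, which had no rows of their own and were not analysed here. Of the 63, 10 fully named genes and 2 partly named ones, JAK3 and STAT5A, reached a mean of 1 CPM. In shHKDC1, 3 of the 10 were higher than in NTC, 3 lower and 4 neither, beside 8.37% higher and 23.1% lower among all fully named genes. In shRBBP5, 1 was higher, 2 lower and 7 neither, beside 2.27% and 8.67%. In shHKDC1 over shRBBP5, 4 were higher, 3 lower and 3 neither, beside 11.4% and 17.4%. These counts include the 4 fully named members, which were picked on these contrasts, so the 6 other genes are given apart. Of those 6, 1 was higher in shHKDC1 than in NTC, 1 lower and 4 neither, with a median log2 ratio of 0.11 against −0.39 over all 1015 genes. In shRBBP5, 0 were higher, 1 lower and 5 neither, with a median of −0.22 against −0.20. In shHKDC1 over shRBBP5, 2 were higher, 1 lower and 3 neither, with a median of 0.33 against −0.14. With no filter on CPM, 8 of 56 fully named list genes, members included, were higher and 4 lower in shHKDC1 over NTC, beside 4.78% and 4.05% of all 11642 fully named genes. In shRBBP5 over NTC, 3 were higher and 3 lower, beside 1.15% and 2.5%. In shHKDC1 over shRBBP5, 10 were higher and 3 lower, beside 5.68% and 3.35%. Genes at 0 in every library are among those counted.

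Among the other list genes measured in full, CSF2RA, the alpha chain of the receptor for the growth factor GM-CSF, was higher in shHKDC1, at 3.8 CPM, against 0.464 CPM in shRBBP5 and 0.719 CPM in NTC. Its log2 ratio of shHKDC1 over NTC was 2.40 (interval 1.79 to 3.0). It passed the filter of 1 CPM through the shHKDC1 library alone. CSF2RA lies in a region shared by the X and Y chromosomes, so its reads may have been divided between copies. IL18R1, the ligand-binding chain for interleukin-18, was at 5.95 CPM in shHKDC1, 2.21 CPM in shRBBP5 and 4.54 CPM in NTC. It was lower in shRBBP5 than in NTC (log2 ratio −1.04, interval −1.42 to −0.67) and not called in shHKDC1 (0.39, interval 0.08 to 0.70). The fibrinogen chain FGB is an acute-phase gene that STAT3 induces in hepatocytes. It was at 0.6 CPM in shHKDC1, 2.3 CPM in shRBBP5 and 2.41 CPM in NTC, and was lower in shHKDC1 (log2 ratio −1.99, interval −2.82 to −1.20). Of 28 STAT3 acute-phase and target genes listed, 6 had rows, and only FGB reached a mean of 1 CPM. Below that level, SERPINA3 (0.24, interval −0.72 to 1.15) and LBP (0.99, interval −0.70 to 2.65) were not called in shHKDC1 over NTC. SAA1, CRP and HAMP were at 0 in NTC and at most 3 units in shHKDC1.

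IL20RA and PIAS2 were not called in either knockdown over NTC. IL20RA, a sister chain of IL22RA1 in the same receptor family, had log2 ratios of 0.22 (−0.43 to 0.85) in shHKDC1 and −0.15 (−0.77 to 0.44) in shRBBP5. PIAS2, a SUMO ligase that can inhibit STAT proteins, was the most abundant list gene, at 13.9 CPM in shHKDC1, 16.3 CPM in shRBBP5 and 15.9 CPM in NTC. Its ratios were −0.19 (−0.38 to −0.01) in shHKDC1 and 0.03 (−0.13 to 0.18) in shRBBP5. JAK3, the kinase bound to the common gamma chain and only partly named here, was at 2.54 CPM in shHKDC1, 4.44 CPM in shRBBP5 and 3.64 CPM in NTC, with ratios of −0.52 (−0.94 to −0.08) in shHKDC1 and 0.29 (−0.03 to 0.61) in shRBBP5. With total-count scaling the ratio of IL20RA in shHKDC1 took the opposite sign (−0.06), as did that of PIAS2 in shRBBP5 (−0.04), and neither was called.

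**Figure D4:**
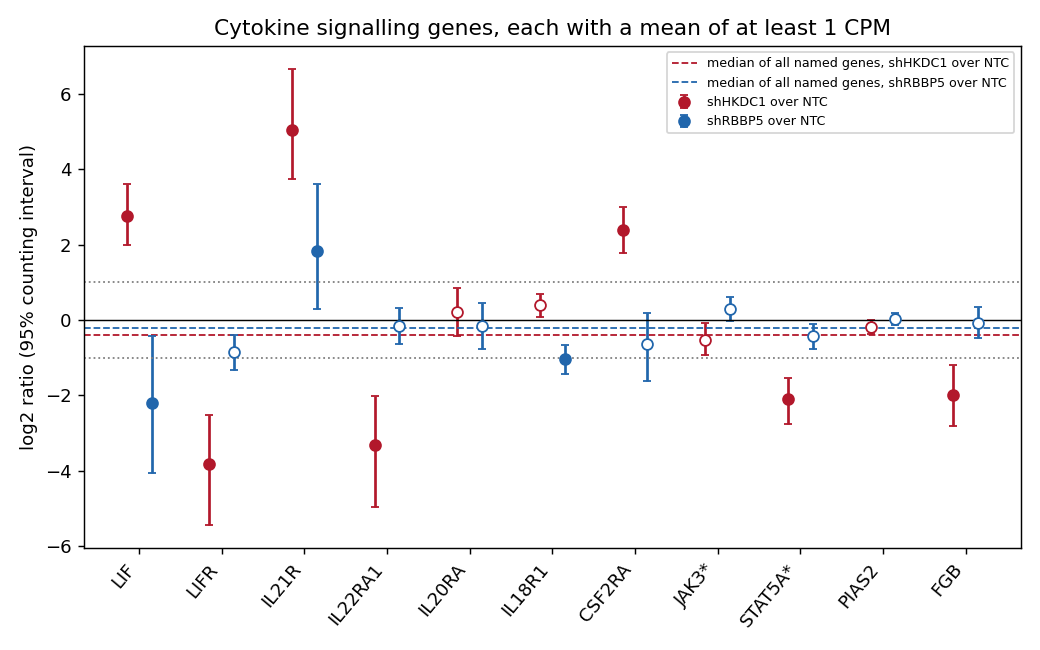
Log2 ratio over NTC (vertical axis) in shHKDC1 and shRBBP5 for the named cytokine pathway genes, each with a mean of at least 1 CPM; filled points were called, open points were not, lines are 95% counting intervals and asterisks mark partly named genes. Dashed lines give the medians of all fully named genes, −0.39 and −0.20, and in shHKDC1 PIAS2, IL20RA, IL18R1 and JAK3 lie inside the dotted 2-fold lines.

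Genes whose pattern over the 3 libraries was most like each member were found by distance in the plane of the log2 ratios over NTC, among 909 fully named protein-coding genes. Among the genes near LIF were NKAIN1, at 4.1 CPM in shHKDC1, 0.282 CPM in shRBBP5 and 1.04 CPM in NTC (distance 0.85), and the lymphatic growth factor receptor FLT4 (0.86). TMEM179 was nearest to LIFR (0.33), with SOWAHA (0.44) and the ketone-body enzyme BDH1 (0.64) after it. For IL21R the nearest were CORO2B (0.76), the laminin chain LAMB3 (1.80) and the collagen chain COL4A2 (1.85). SPP1, which encodes osteopontin, was nearest to IL22RA1 (0.32), then the semaphorin receptor PLXNC1 (0.33) and SOWAHA (0.53). STAT5A was closest to TRMT10A (0.11), the Wnt regulator DACT1 (0.16) and the phospholipid flippase ATP8A1 (0.17). With 3 points per gene, such likeness is a description only.

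Over the whole series, libraries held 115556160 units in shHKDC1, 154533913 in shRBBP5 and 161750310 in NTC, and at least 99.43% of them lay on anonymous loci that carry no gene name. No row carried the name HKDC1 or RBBP5, so the knockdowns themselves were not checked, and directions follow the labels. Whether further reads of a member lay on an anonymous locus was not tested. In the bulk RNA, fewer cells expressing a gene and less RNA per cell cannot be told apart. Of 15 hepatocyte markers 2 had rows, FGB and CYP3A4, with a summed level of 0.639 CPM in shHKDC1, 2.3 CPM in shRBBP5 and 2.41 CPM in NTC, so the labelled cell type could not be checked further.

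The summed level of the 2 cholangiocyte markers with rows was 1.91 CPM in shHKDC1, 0.15 CPM in shRBBP5 and 0.2 CPM in NTC, nearly all from KRT7. For the 5 endothelial markers it was 0.803 CPM in shHKDC1, 0.163 CPM in shRBBP5 and 0.16 CPM in NTC. For 6 stellate or fibroblast markers it was 1.62 CPM in shHKDC1, 1.79 CPM in shRBBP5 and 0.879 CPM in NTC, and for 4 macrophage markers 0.91 CPM in shHKDC1, 0.928 CPM in shRBBP5 and 0.554 CPM in NTC. By the call rule, KRT7 was 10.5-fold higher in shHKDC1 than in NTC, at 1.88 CPM against 0.177 CPM, a level in shHKDC1 close to that of IL22RA1 in NTC. VWF, an endothelial marker, was 35.6-fold higher in shHKDC1 than in NTC (log2 ratio 5.15, interval 2.27 to 10.31), at 0.707 CPM against 0.0171 CPM. PDGFRB, a stellate and fibroblast marker, was higher in both knockdowns, by 2.44-fold in shHKDC1 and 2.57-fold in shRBBP5. It made up most of the stellate or fibroblast sum, at 1.48 CPM in shHKDC1, 1.56 CPM in shRBBP5 and 0.605 CPM in NTC. The rest of that sum was highest in NTC. COL1A2, KDR and MARCO were at 0 in all 3 libraries. VWF, at 0.0188 CPM in shRBBP5, made up most of the endothelial sum in shHKDC1. The rest of that sum was lowest in shHKDC1. Through KRT7 and VWF, the cholangiocyte and endothelial sums were highest in shHKDC1, as were LIF and IL21R. The part of these markers in those results was not tested.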

How the data were processed

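RNA from 3 libraries of PLC cells was analysed. TRIzol was used to extract the RNA, per the labels. The submitters' processing notes name HISAT2 2.2.1, StringTie 1.3.4, DESeq2 1.28.1 and build hg19, without roles. The values deposited by the authors are estimated counts, called units here, without scaling for depth or length. Annotation, strand setting and counting tool were not given in the sources used here. Columns were mapped to the labels by the abbreviations shHD and shRB in their names.

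RefSeq rows were matched to symbols by accession without version in a GRCh38.p14 RefSeq table (27357 of 27403 rows) and summed per gene. A gene was fully named when all its RefSeq transcripts had rows (11642 of 12034). No coordinates of the files were used. TMM factors over loci and summed genes (edgeR 4.0.16, R 4.3.3) were 0.894 for shHKDC1, 1.03 for shRBBP5 and 1.08 for NTC. In shHKDC1, 313, 432 and 213 rows held 3, 4 and 5 units, which is the basis for taking 4 units as 1 fragment. A count of 3 fragments, taken as the floor for a count of 0, is 0.116 CPM in shHKDC1, 0.0752 in shRBBP5 and 0.0685 in NTC. Python 3.11.15, NumPy 2.4.6, pandas 2.3.3 and SciPy 1.17.1 were used otherwise.

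The members, lists and rules were chosen with earlier results of these data known. Named by rule are the members, list genes with a mean of at least 1 CPM, and the 3 nearest genes of each member with a mean of at least 0.5 CPM. Partner chains, markers and list genes below 1 CPM were named after their values were seen. Results for 2 genes that this rule names are not reported here. With 1 library per group no test between groups was made. Alternatives were other scalings (total counts, DESeq2 1.42.0 size factors, upper quartiles), a pseudocount of 5 units, units taken as reads, the 20 most abundant rows left out, each gene's most abundant row alone, and other CPM filters.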

Additional observations from a re-analysis of the deposited data

How the results depend on the processing

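Over 6 settings of scaling, pseudocount, units taken as reads and the 20 most abundant rows left out, all 90 member ratios kept their direction and their call. Taking units as reads leaves each ratio unchanged and narrows its interval, so no call could be lost there. Leaving out the 20 most abundant rows gave the same ratios as printed. Total counts shifted the median of all fully named genes by −0.28 in shHKDC1 over NTC, by −0.07 in shRBBP5 over NTC and by −0.21 in shHKDC1 over shRBBP5, and upper quartiles shifted the last by 0.11. In a further setting, each gene's row with the most units summed over the 3 libraries was used alone. For LIF and IL22RA1 it held every unit. For LIFR, IL21R and STAT5A it was at 0 in shHKDC1 or NTC, whichever had the lower sum. Their kept calls in shHKDC1 over NTC thus followed from the choice of row. Other rows went the other way, with LIFR NM_001364297 and STAT5A NM_003152 higher in shHKDC1 and IL21R NM_181079 higher in NTC. With the chosen row alone, called ratios that had a value kept their call, but 4 moved by over 1.5 times. In these a count of 0 was set to 3 fragments and the other count taken as it stands, so they are not strict bounds. STAT5A was at −3.92 in shHKDC1 over NTC and at −4.51 in shHKDC1 over shRBBP5. In shHKDC1 over NTC, LIFR was at −4.52 and IL21R at 5.75. LIFR in shRBBP5 over NTC was at −5.15, with its 0 set to 3 fragments in the same way. That is past the call, since that row is NM_001127671. STAT5A in shRBBP5 over NTC was at 0.59 in place of −0.43. LIFR in shHKDC1 over shRBBP5 had no value there, both being at 0. With a mean of at least 5 CPM, no member remained and every count of members called was 0, as was that of list genes, because 1 list gene (PIAS2) was measured. With no CPM filter, list genes called higher and lower numbered 8 and 4 in shHKDC1 over NTC, 3 and 3 in shRBBP5 over NTC and 10 and 3 in shHKDC1 over shRBBP5. Depth limits LIF in shRBBP5, LIFR and IL22RA1 in shHKDC1 and IL21R in NTC, each on 4 or 5 fragments. No paired analysis was possible because each group has 1 library.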

Other observations

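Below the level of 1 CPM, 51 pathway genes had rows, of which 16 were at 0 in all 3 libraries and 21 exceeded 12 units (3 fragments) in some library. IL15RA, the receptor chain that presents interleukin-15, had 98 units in shHKDC1, 128 in shRBBP5 and 0 in NTC. With its NTC count of 0 set to the floor of 3 fragments, it was 13.8-fold higher in shHKDC1 and 11.7-fold higher in shRBBP5. The other counts were taken as they stand, so these are not strict bounds. The 95% intervals of the IL15RA log2 ratios over NTC began at 3.35 in shHKDC1 and 3.17 in shRBBP5. Its ligand IL15 had 55 units in shHKDC1, 32 in shRBBP5 and 12 in NTC (log2 ratio of shHKDC1 over NTC 2.91, interval 1.14 to 5.42, on about 3 fragments in NTC). In shRBBP5 the IL15 ratio over NTC was 1.51 (interval −0.51 to 4.10) and not called. IL1RL1, the receptor for interleukin-33, had 46 units in shHKDC1 and 0 in both shRBBP5 and NTC. IL12RB2 had 21 units in shHKDC1, 12 in shRBBP5 and 0 in NTC, and was called higher in shHKDC1 over NTC. In the other direction, IL27, listed with LIF among the interleukin-6 family ligands, had 10 units in shHKDC1, 27 in shRBBP5 and 69 in NTC. It was called lower in shHKDC1 over NTC (log2 ratio −1.96, interval −5.48 to −0.25), on about 2 fragments in shHKDC1. SAA1 was called higher in shRBBP5 over NTC, at 22 units against 0.

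CISH, an inhibitor of cytokine signalling that STAT5 induces, was at 1.04 CPM in shHKDC1, 0.364 CPM in shRBBP5 and 0.514 CPM in NTC. Its log2 ratio of shHKDC1 over NTC was 1.01 (interval 0.19 to 1.94), at the edge of the call. This ratio was not called with total counts, where it was 0.73, or with a pseudocount of 5 units. Of the 7 STAT5 target genes with rows, none of the others was called over NTC in shHKDC1. With no CPM filter, 4.78% of all 11642 fully named genes were called higher there and 4.05% lower. OSM was at 0 in every library, and CYP3A4 and IGF1 had 4 and 6 units, in shHKDC1 alone. These counts were too low for a call, so nothing is read from the lack of calls. IGFALS had 0 units in shHKDC1, 23 in shRBBP5 and 23 in NTC. IL20RB, a partner of IL20RA, was at 0.726 CPM in shHKDC1, 0.263 CPM in shRBBP5 and 0.571 CPM in NTC, with a ratio of shRBBP5 over NTC of −1.11 (interval −2.41 to −0.08).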
